A study of Mus musculus with 106 samples.

Results

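The genes described here encode the machinery by which antigen-presenting cells display peptides on major histocompatibility complex (MHC) class II: H2-Aa, H2-Ab1, H2-Eb1, Cd74, H2-DMa, H2-DMb1 and Ciita. They were chosen by symbol, not by a limit on measured values, but earlier results of these data were known when they were chosen. All 7 were found among the 19169 gene symbols shared by the 4 deposited count tables. The study sequenced bulk RNA from tissues of male wild type C57BL/6 or C57BL/6J mice, in 106 libraries. The mice were kept in the cold (10 °C), at room temperature (22 °C, RT) or in the warm (34 °C). Cold mice were held at 18 °C and then at 14 °C, 5 days each, before 2 weeks at 10 °C, and warm mice spent 4 weeks at 34 °C. Each experiment had its own mice at 22 °C, from a different supplier, and the labels give an age of 11 weeks for the cold experiment and 12 weeks for the warm experiment and for every quadriceps library.

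The cold experiment covered 11 tissues: interscapular brown adipose tissue (iBAT), inguinal subcutaneous (ingSAT) and perigonadal visceral (pgVAT) adipose tissue, quadriceps, ileum, liver, spleen, bone marrow, spinal cord, brain and hypothalamus. For the warm experiment 5 tissues were analysed here: iBAT, quadriceps, ileum, liver and brain without hypothalamus. Bone marrow had 6 single mice in each group and spinal cord 5, while every other group had 3 libraries, which the study describes as pools of a pair of mice (warm iBAT was pooled unevenly). Each 10 °C or 34 °C group was compared with its own 22 °C libraries, which gave 16 comparisons. The labels carry a line on 34 °C treatment for every sample, so temperatures were read from titles and treatment tags.

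MHC class II molecules are pairs of an alpha and a beta chain that carry peptides from digested extracellular proteins to CD4 T cells. The invariant chain Cd74 fills the groove during transport, and the H2-DM pair later helps to exchange its remnant for a peptide. Ciita is the transactivator that switches these genes on, constitutively in B cells and dendritic cells and after interferon gamma in many other cells, through factors bound to an X box and a Y box in front of each gene. C57BL/6 mice lack a working H2-Ea gene, so the H2-Eb1 chain is transcribed in them without its partner.

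By GENCODE on GRCm38 (mm10), the 3 chain genes and both H2-DM genes lie on chromosome 17. H2-Aa spans 34282744 to 34287823 on the minus strand. On the plus strand are H2-Ab1 (34257689 to 34269419), H2-Eb1 (34305867 to 34316674), H2-DMa (34119541 to 34139101) and H2-DMb1 (34153072 to 34160230). Ciita lies on chromosome 16 (10480059 to 10528418, plus). Ciita shares 329 exonic bases with Dexi and H2-DMa shares 360 with Brd2, each on the opposite strand. Whether strand was used in counting is not given in the sources used here for the table that holds 8 of the cold tissues, so reads in these overlaps cannot be told apart.

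The upstream windows in RefSeq (GRCm38.p6) show what the genes share in sequence. Windows were matched for 4 of the 7 genes and searched on the gene's strand. Of these 4, 3 held an X box core (GNAAC) starting 28 to 31 bases before the start of a Y box (TGATTGG). The range of distances was chosen after these windows were seen. The 32851 windows of 250 bases in RefSeq were searched on both strands, a wider search than that of the class II genes. The pair was found in 0.0883%, the Y box alone in 7.23% and the X core alone in 79.6%, and N stands for any base. The 100 bases before the start are shown for the 3 genes, 5′ to 3′, with the X core and the Y box in capitals. They are chr17:34287824-34287923 (minus strand) for H2-Aa, chr17:34305767-34305866 (plus) for H2-Eb1 and chr17:34153091-34153190 (plus) for H2-DMb1.
H2-Aa: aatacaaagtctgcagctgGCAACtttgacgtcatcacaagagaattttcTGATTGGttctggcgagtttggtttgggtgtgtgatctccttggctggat
H2-Eb1: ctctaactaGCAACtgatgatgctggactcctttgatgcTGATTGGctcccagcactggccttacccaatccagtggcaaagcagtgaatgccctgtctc
H2-DMb1: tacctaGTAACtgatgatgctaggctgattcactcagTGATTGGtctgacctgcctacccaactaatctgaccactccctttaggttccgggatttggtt
The starts of the X core and the Y box were 31 bases apart in H2-Aa and H2-DMb1 and 30 in H2-Eb1. Neither window of H2-DMa held the pair on the gene's strand. It was found there in 3 of the 4 other class II genes looked up (H2-Oa, H2-Ob and H2-Eb2, but not H2-DMb2). These matches are letters in a window and say nothing of binding.

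Total counts ran from 4262403 to 58290770 in the cold experiment and from 29545458 to 62880248 in the warm experiment. Levels are given as CPM, counts scaled to a common library size, with library sizes adjusted by the trimmed mean of M values (TMM). The factors were computed within each comparison, so each tissue was scaled separately, also within a table. Levels across tissues are therefore set side by side without a test. Defining markers of each labelled tissue were present. Some libraries carried markers of another tissue, and those in pgVAT, iBAT and brain are named again beside the results they touch. Epididymis markers were found in pgVAT, far highest in 2 libraries at 10 °C, and at low levels in iBAT and 1 quadriceps library at 10 °C. A skeletal muscle admixture varied between iBAT libraries, and 1 brain library at 22 °C (replicate 2) held Sdc1, brown adipocyte and ileum transcripts. The paper also reports raised Ucp1 in quadriceps in the cold, which it says could stem from adipocytes, contaminating or lying within the muscle.

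At 22 °C in the cold experiment, class II transcripts were most abundant in spleen and ileum and least abundant in the nervous tissues and liver. The summed level of the 7 genes was 9290 CPM in spleen, 3740 in ileum, 1810 in ingSAT, 1260 in bone marrow, 894 in pgVAT, 360 in iBAT, 189 in quadriceps, 96.2 in liver, 52.1 in brain, 44 in spinal cord and 32.8 in hypothalamus. Spleen was thus 283-fold above hypothalamus. Libraries of neighbouring tissues in this order did not overlap from spleen down to quadriceps, whereas from quadriceps to hypothalamus each tissue overlapped the next. In bulk tissue, fewer expressing cells and less RNA per cell cannot be told apart.

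**Figure D1:**
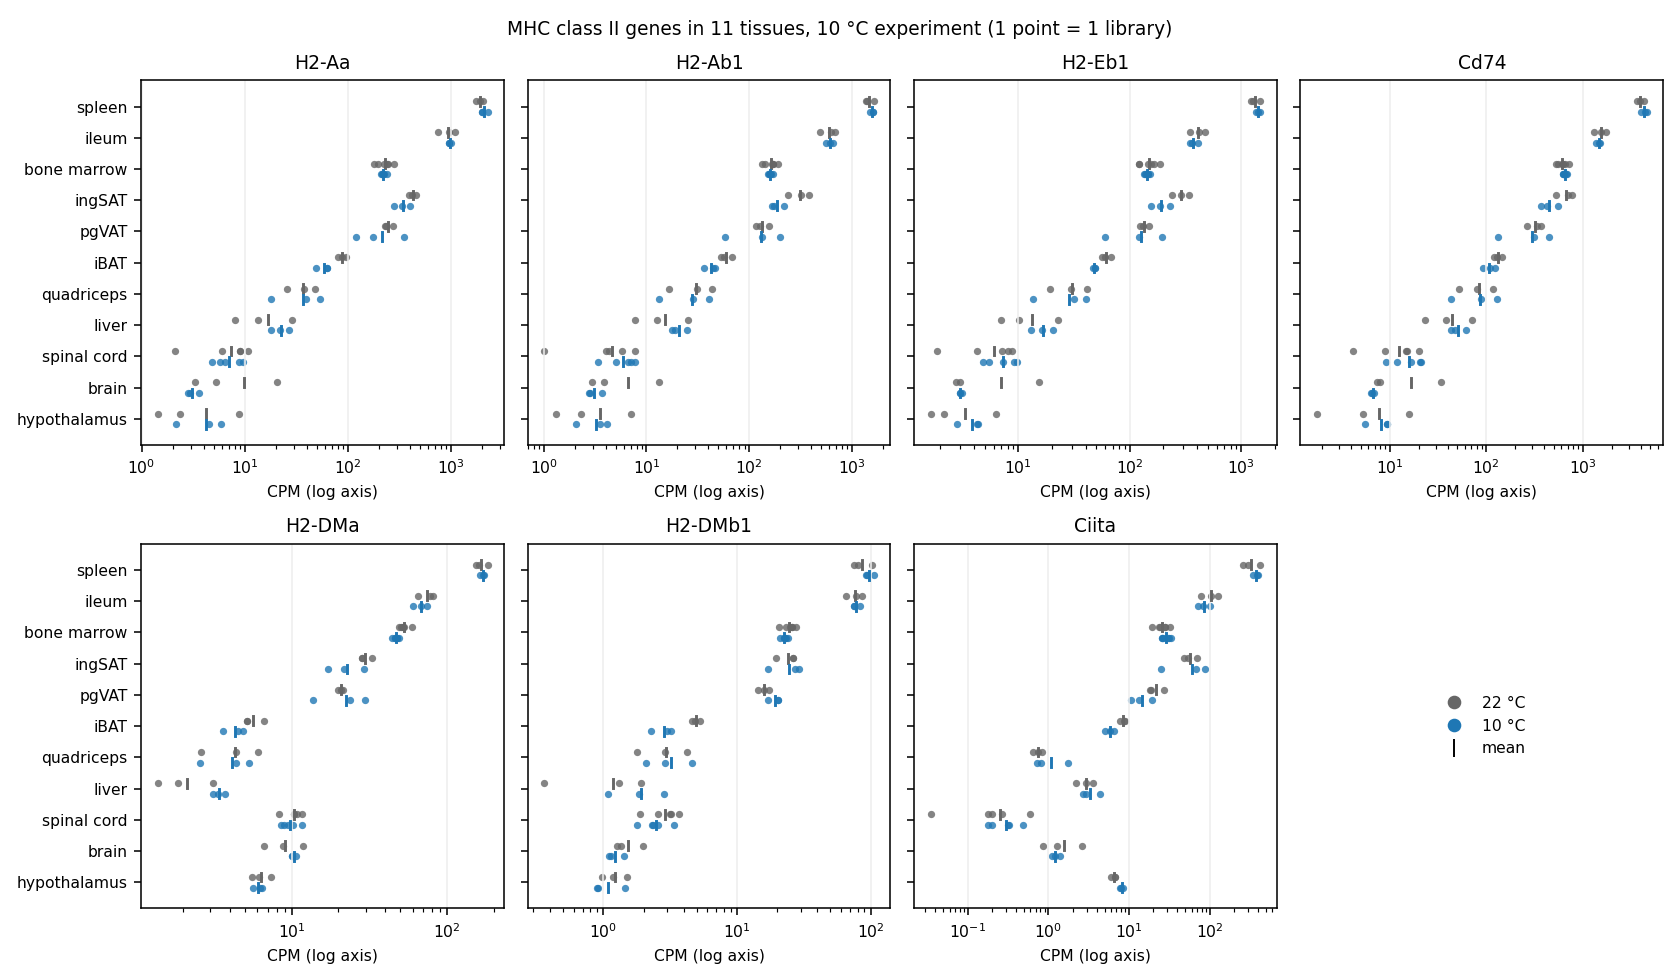
CPM of each gene (x axis, log scale) in each library of the cold experiment, by tissue (y axis), with grey points for 22 °C, blue points for 10 °C and ticks for group means. Spleen is highest for every gene, with Cd74 at a mean of 3970 CPM at 22 °C, and H2-DMa stands apart in spinal cord (10.3 CPM) and brain (9.08 CPM), above its 5.65 CPM in iBAT.

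The 3 classical chain genes went together. H2-Aa, the alpha chain of the A molecule, read 2070, 1950 and 1780 CPM in the 3 spleen libraries and 1.44, 8.76 and 2.36 CPM in the 3 hypothalamus libraries. H2-Ab1, its beta chain, read 1640, 1390 and 1370 CPM in spleen and 1.31, 7.06 and 2.32 CPM in hypothalamus. H2-Eb1 read 1480, 1280 and 1220 CPM in spleen and 1.63, 6.24 and 2.13 CPM in hypothalamus. In hypothalamus it was replicate 2 that was high for all 3 genes. Across the 11 tissue means, log2 levels of each chain gene followed the mean of the other 6 members with Pearson's r of 0.99. This is given as a description because tissues share tables and may share mice. The corresponding r was 0.98 for Cd74, 0.97 for H2-DMb1, 0.92 for Ciita and 0.86 for H2-DMa.

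Cd74, the invariant chain, was the most abundant member per length of exon in all 32 tissue and temperature groups. In spleen at 22 °C it stood at 2370 CPM per kb, against 684 for H2-Eb1, 572 for H2-Ab1 and 509 for H2-Aa. These orders depend on the division by length. In CPM, H2-DMa (10.3) lay above Cd74 (6.63) in brain at 10 °C. The chain genes in spleen at 22 °C stood in the reverse order, at 1930 CPM for H2-Aa, 1470 for H2-Ab1 and 1330 for H2-Eb1. The order of the chain genes was not fixed: in ileum of the cold experiment H2-Aa led at 248 CPM per kb, ahead of H2-Ab1 at 234 and H2-Eb1 at 211. Cd74 per kb was 2.93 times H2-Aa in pgVAT, 6.1 times in bone marrow and 6.19 times in liver.

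Among the peptide loading genes, H2-DMa departed most from the common order. H2-DMa, the alpha chain of the editor, read 182, 160 and 153 CPM in spleen and was lowest in liver at 1.38, 1.86 and 3.14 CPM. Spinal cord gave 8.32, 10.4 and 11.6 CPM as its lowest, median and highest library, and brain 8.81, 6.61 and 11.8 CPM. Both means (10.3 and 9.08 CPM) lay above the iBAT range of 5.14 to 6.67 CPM, whereas mean H2-Aa was 7.36 CPM in spinal cord and 9.78 CPM in brain against 88.8 CPM in iBAT. Per kb, H2-DMa was 0.0705 of H2-Aa in iBAT and 0.256 of it in bone marrow, but 2.01 in spinal cord, 2.04 in brain, 2.76 in hypothalamus and 4.65 in brain of the warm experiment. H2-DMb1, its beta chain, followed the chain genes more closely, from 85.8 CPM in spleen and 76.2 in ileum, whose libraries overlapped, to 1.22 in hypothalamus and 1.19 in liver. Brd2, which overlaps H2-DMa, was at 150 CPM in hypothalamus, 148 in brain and 163 in iBAT. Microglia markers summed to 234 to 256 CPM in spinal cord at 22 °C and to 19.1 to 19.6 CPM in iBAT. The part of either in the H2-DMa level was not tested.

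**Figure D2:**
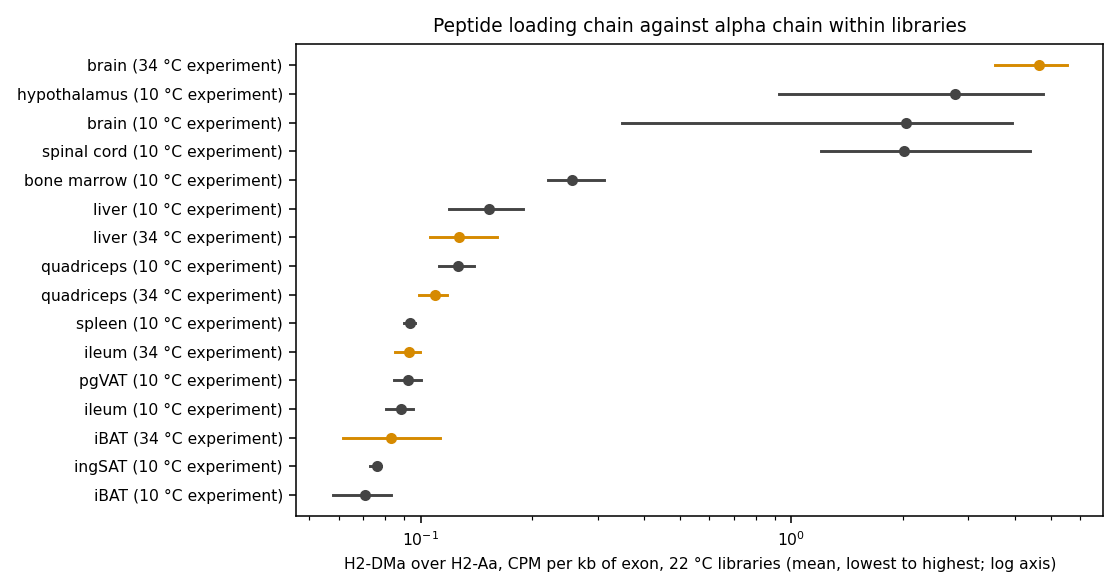
Ratio of H2-DMa to H2-Aa, each as CPM per kb of exon, at 22 °C by tissue and experiment (x axis, log scale), with a point for the group mean and a line from the lowest to the highest library. Ratios in spinal cord (1.2 to 4.39), brain (0.35 to 3.94) and hypothalamus (0.927 to 4.76) of the cold experiment lie above those of iBAT (0.058 to 0.0831) and spleen (0.0901 to 0.0967).

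Ciita was the scarcest member per kb in 31 of the 32 groups. It read 426, 300 and 257 CPM in spleen, 0.737, 0.654 and 0.826 CPM in quadriceps and 0.0348 to 0.599 CPM in spinal cord. Hypothalamus was out of line with 5.95, 6.68 and 6.76 CPM, all above the liver libraries (2.23, 3.61 and 2.96 CPM). As a share of Cd74 per kb, Ciita was 29.7% in hypothalamus, with libraries from 7.41% to 59.3%, and between 0.176% and 2.09% in the other tissues of the cold experiment at 22 °C. Its overlapping neighbour Dexi stood at 29.8 CPM in hypothalamus and 35.4 CPM in brain. Brain of the warm experiment, from a stranded kit, gave Ciita of 0.0997 to 0.223 CPM at 22 °C, below the 0.867 to 2.62 CPM of the cold experiment. This was not particular to brain. The share of Cd74 at 22 °C was 0.241% in warm iBAT against 1.13% in cold, 0.376% against 1.17% in ileum and 0.198% against 1.36% in liver. In quadriceps, where both experiments share a table, it was 0.195% against 0.176%. The part of the kit and the experiment in the Ciita levels was not tested.

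The question for each comparison was whether housing temperature changed these levels. A gene was called where the edgeR quasi-likelihood test gave p of 0.05 or less before adjustment together with a change of more than 1.5-fold, and the Benjamini-Hochberg adjusted p over all genes tested is given beside it. Of the 112 pairs of a gene and a comparison, 107 could be tested, and Ciita was under the limit of an average log2 CPM of 0 in the other 5. Over all of them 1 call was higher and 4 were lower, all at 10 °C, and 4 pairs had an adjusted p under 0.05. None of the 32 tests at 34 °C gave a call, and none had an unadjusted p of 0.05 or less. Among the comparisons without a call, H2-DMa in bone marrow and Ciita in hypothalamus had an unadjusted p of 0.05 or less. In those comparisons edgeR's exact test and DESeq2 also gave 0 calls, except for 1 and 2 members called lower in brain at 10 °C. There these tests called 772 and 389 of all 14416 genes.

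**Figure D3:**
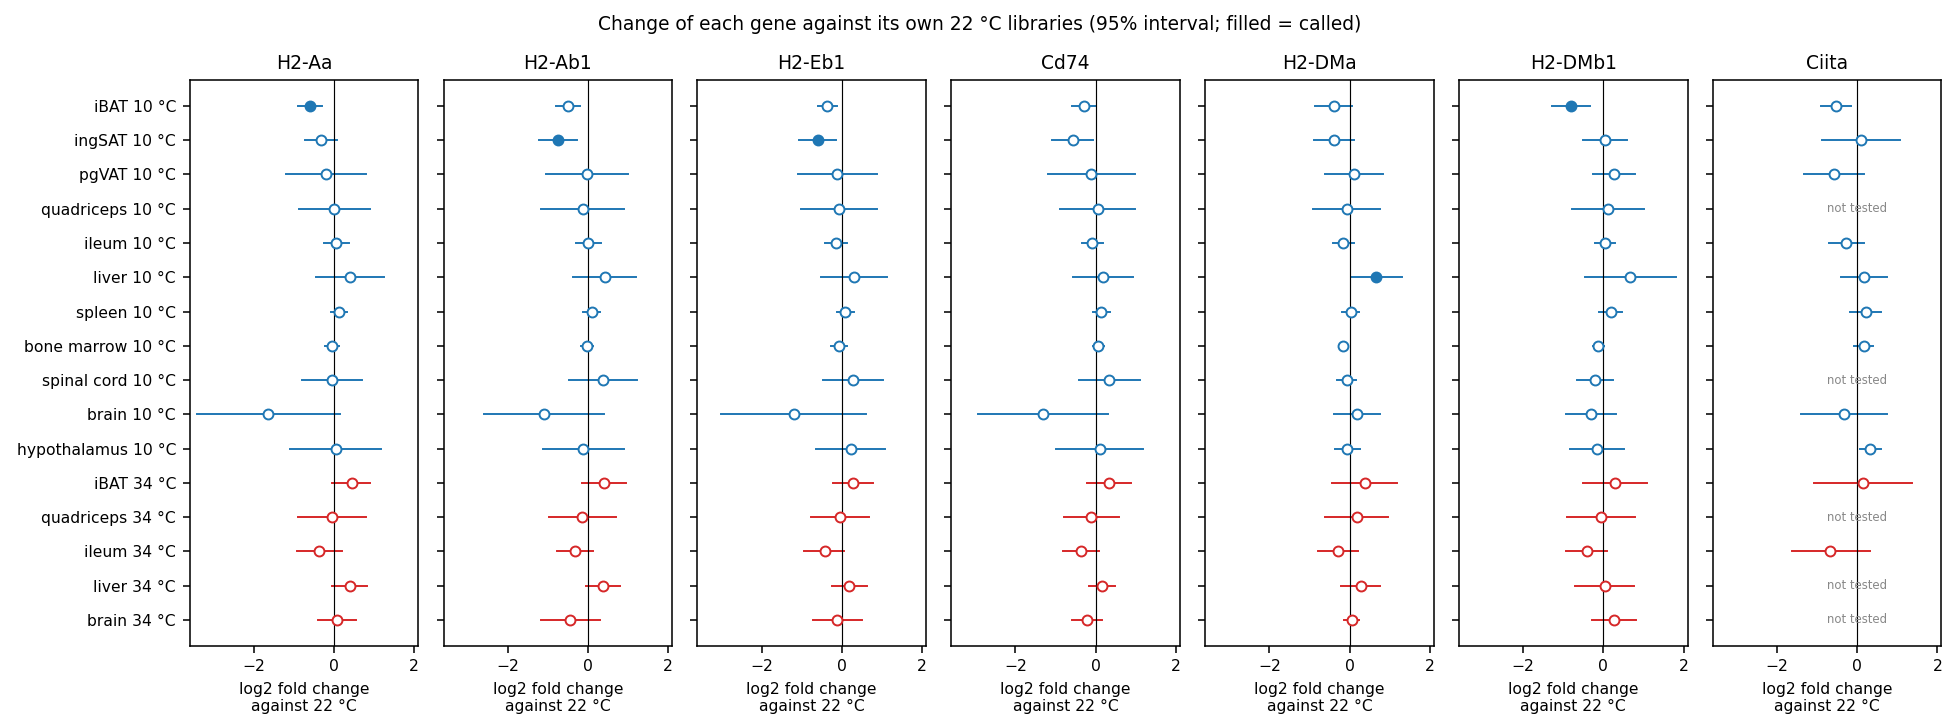
Log2 fold change against the matching 22 °C libraries (x axis) with its 95% interval for each gene in the 16 comparisons, with filled points for called genes. The called values are H2-Aa (-0.59) and H2-DMb1 (-0.81) in iBAT, H2-Ab1 (-0.74) and H2-Eb1 (-0.60) in ingSAT, and H2-DMa (0.67) in liver, all at 10 °C, and the widest intervals of the chain genes and Cd74 are those of brain at 10 °C.

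In iBAT at 10 °C, all 7 genes had lower means than at 22 °C, H2-Aa and H2-DMb1 fell, and 6 of the 7 had libraries that did not overlap between temperatures. Brown fat burns fuel for heat in the cold, and like other adipose tissue it holds resident macrophages and dendritic cells. Over all 12793 genes tested, 13.3% were called, 7.25% were called lower, 11.4% had an adjusted p under 0.05 and 16.8% had lower libraries without overlap. The 2 calls among 7 members were about 1 more than the 13.3% would give. The median log2 fold change of the members was -0.50, against -0.02 for all genes.

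H2-Aa read 97.6, 80.6 and 88.3 CPM at 22 °C and 63.6, 63.4 and 49.6 CPM at 10 °C in iBAT. Every cold library lay under every control, and the log2 fold change was -0.59 (SE 0.133, adjusted p = 0.0236). H2-Ab1 read 56.9, 53.7 and 68.1 CPM against 44.1, 46 and 36.6 CPM. These groups did not overlap either, with -0.50 (SE 0.135, adjusted p = 0.0461), just under the fold limit. H2-Eb1 read 60.3, 56.4 and 67.6 CPM against 48.7, 48.2 and 46.8 CPM, again without overlap, at -0.36 (adjusted p = 0.0642).

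Cd74 read 128, 121 and 146 CPM in iBAT at 22 °C and 109, 122 and 92.3 CPM at 10 °C. It was the one member whose groups overlapped, with -0.29 (95% interval -0.59 to 0.02, adjusted p = 0.2). Of the loading genes, H2-DMb1 read 5.3, 4.64 and 4.87 CPM against 2.97, 3.19 and 2.29 CPM, which gave the largest difference of the 7, -0.81 (SE 0.206, adjusted p = 0.0376). H2-DMa read 5.14, 5.14 and 6.67 CPM against 4.5, 4.89 and 3.62 CPM, with -0.39 (adjusted p = 0.249). Ciita read 8.88, 8.6 and 7.71 CPM against 5.88, 5.03 and 6.55 CPM. Its groups were separate, with -0.52 (SE 0.167, adjusted p = 0.0775). H2-DMb1 was called whichever library was left out, but its adjusted p in these fits was 0.0561 to 0.158. H2-Aa dropped under the fold limit without the third 10 °C library (-0.48) or the first 22 °C library (-0.52).

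**Figure D4:**
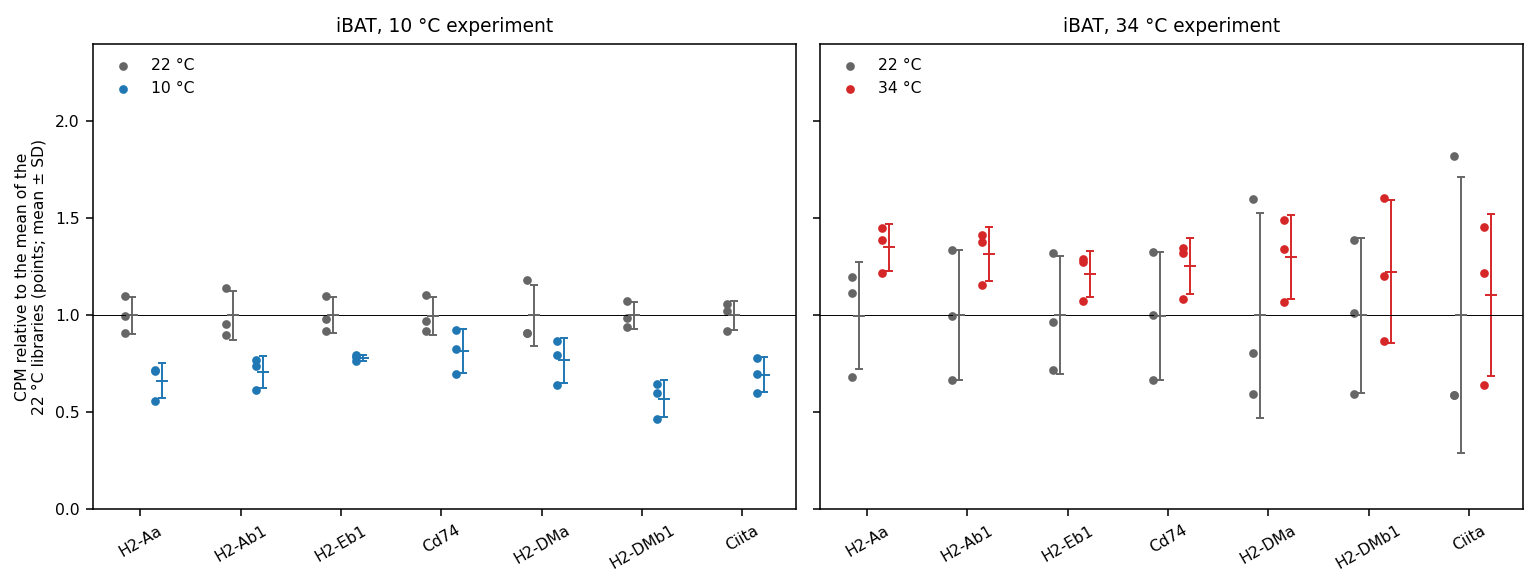
CPM of each gene relative to the mean of its 22 °C libraries in iBAT, for the cold experiment (left, 22 °C grey and 10 °C blue) and the warm experiment (right, 22 °C grey and 34 °C red), with 1 point a library and bars for the mean ± SD. The 10 °C points lie under the 22 °C points for every gene except Cd74, and the warm points overlap their controls except for H2-Aa (75.7 to 133 CPM at 22 °C, 135 to 161 CPM at 34 °C).

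Markers of other cells in iBAT moved to differing degrees. Macrophage markers overlapped between temperatures, summing to 130 to 168 CPM at 22 °C and 116 to 179 CPM at 10 °C with 0 of 6 called, as did B cell markers, at 4.5 to 9.19 and 6.72 to 8.26 CPM, with 0 of 2 tested called and none of the 8 at 0 throughout. Dendritic cell markers summed to 57.8 to 72.8 CPM at 22 °C and 42.1 to 46.5 CPM at 10 °C, nearly all of it Zbtb46 (56.2 and 36.6 CPM, adjusted p = 0.0128), the 1 gene called of 4 tested. Skeletal muscle markers summed to 5040 to 6990 CPM at 22 °C and 1920 to 4190 CPM at 10 °C, with 3 of 4 called lower, and brown adipocyte markers to 6540 to 11200 and 12100 to 16000 CPM. Epididymis markers were at 0 at 22 °C and summed to 2.65 to 30.2 CPM at 10 °C. The part of these in the class II difference was not tested.

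In ingSAT at 10 °C, H2-Ab1 and H2-Eb1 fell at the unadjusted limit, and no member had an adjusted p under 0.05. Over all genes tested, 16.3% were called, 9.14% were called lower and 7.51% had an adjusted p under 0.05. The 2 calls among 7 members were again about 1 more than the first rate would give. The members' median was -0.39, against -0.01. H2-Ab1 read 379, 318 and 237 CPM at 22 °C and 168, 218 and 174 CPM at 10 °C. Its groups did not overlap, as for 16.4% of all genes in this direction, and it differed by -0.74 (SE 0.202, adjusted p = 0.0712). H2-Eb1 read 336, 290 and 241 CPM against 154, 231 and 188 CPM, separate by a narrow gap, with -0.60 (SE 0.194, adjusted p = 0.104). Cd74 read 772, 702 and 531 CPM against 368, 558 and 428 CPM, which overlapped, with -0.57 (adjusted p = 0.146) and a fold just under the limit. H2-Aa, at -0.33 (adjusted p = 0.25), overlapped too.

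Of the other genes in ingSAT, H2-DMa went from a mean of 29.8 to 22.7 CPM (-0.39, adjusted p = 0.261) with overlapping libraries, while Ciita and H2-DMb1 differed by less than 0.1 on the log2 scale. Ciita read 53.4, 48.1 and 69.6 CPM at 22 °C and 25.3, 88.7 and 68.2 CPM at 10 °C, so the first cold library was the lowest of the 6 and the second the highest (0.09, 95% interval -0.89 to 1.07). H2-DMb1 read 26.2, 19.6 and 26.2 CPM against 17, 29.1 and 27.3 CPM, at 0.03 (interval -0.52 to 0.58). B cell markers were likewise lowest in the first cold library and highest in the second, summing to 65.1, 145 and 378 CPM at 22 °C and 24.3, 722 and 471 CPM at 10 °C, as did the lymph node list, at 57.5, 61.4 and 108 CPM against 18.1, 211 and 107 CPM. Macrophage markers summed to 1120, 782 and 579 CPM against 666, 434 and 479 CPM, with 3 of 6 called lower. H2-Ob, a modulator of H2-DM made mainly by B cells, ranged from 12.5 to 59.5 CPM at 22 °C and from 3.56 to 116 CPM at 10 °C. The part of cell content in these differences was not tested. Leaving out the first 22 °C library took the count of calls from 2 to 0 (1756 of all 13986 genes called), and leaving out the second 10 °C library took it to 4 (1899 of 13955).

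**Figure D5:**
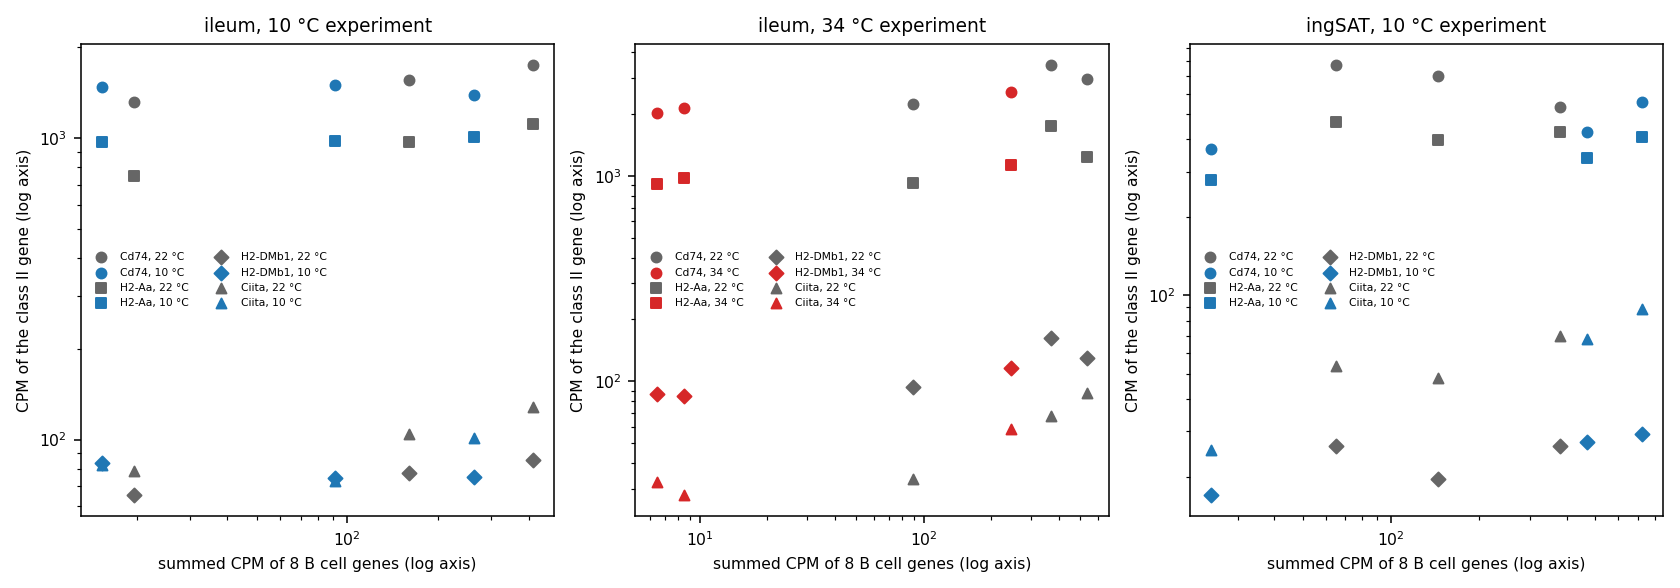
Summed CPM of the 8 B cell markers (x axis, log scale) and CPM of Cd74, H2-Aa, H2-DMb1 and Ciita (y axis, log scale) in each library of ileum (cold and warm experiments) and ingSAT, coloured by temperature. In ingSAT the B cell sum runs from 24.3 to 722 CPM while Ciita runs from 25.3 to 88.7 CPM.

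In pgVAT none of the 7 genes was called, against 7.96% of all genes, and the 10 °C libraries spread widely. H2-Aa read 278, 229 and 236 CPM at 22 °C and 120, 355 and 175 CPM at 10 °C. Cd74 read 370, 262 and 333 CPM against 131, 447 and 316 CPM. In both, cold replicate 2 was the highest library of the 6 and cold replicate 1 the lowest. Epididymis markers summed to 528 to 2580 CPM at 22 °C and to 15800, 2.46 and 17400 CPM at 10 °C, high in the libraries with less H2-Aa. With replicate 2 as the one cold library, a choice made after the data were seen, the median of the members was 0.49 with 0 calls, and without it 2 genes were called lower, H2-Aa at -0.76 and Ciita at -0.85, where 3517 of all 15006 genes tested were called.

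In liver at 10 °C, 1 of the 7 genes was called, against 3.28% of all genes in either direction and 0.74% called higher, and all 7 had positive fitted differences with a median of 0.41. H2-DMa read 1.38, 1.86 and 3.14 CPM at 22 °C and 3.74, 3.38 and 3.1 CPM at 10 °C. It rose by 0.67 on the log2 scale (SE 0.284, adjusted p = 0.253), although one control lay within the cold range. The chain genes varied more among controls than between temperatures: H2-Aa read 8.07, 13.5 and 29.1 CPM at 22 °C and 27.2, 22.1 and 18 CPM at 10 °C. Without the third 22 °C library, the highest for H2-Aa, 5 genes were called higher, where 630 of all 12005 genes were called, and without any one of the other 5 libraries none was. Macrophage markers summed to 118, 219 and 192 CPM at 22 °C and 242, 191 and 234 CPM at 10 °C.

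In spleen, where these genes were most abundant, none of the 7 was called, against 2.68% of all genes. Cd74 read 4350, 3890 and 3680 CPM at 22 °C and 4610, 4470 and 4040 CPM at 10 °C, which overlapped. All 7 fitted differences were above 0 and small, from 0.03 to 0.21 on the log2 scale, and the widest of their 95% limits were -0.18 and 0.60. For Cd74 the 95% interval ran from -0.07 to 0.35.

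Bone marrow, with 6 mice a group, gave the tightest estimates. None of the 7 genes was called, against 1.29% of all genes. H2-DMa ran from 48.7 to 59 CPM at 22 °C (median 51.9) and from 44.3 to 49.1 CPM at 10 °C (median 47). Its groups overlapped at the edge, and its log2 fold change of -0.16 had an adjusted p of 0.0259, where 19% of all genes had an adjusted p under 0.05. H2-Aa (-0.05, interval -0.22 to 0.13) and Cd74 (0.07, interval -0.07 to 0.21) were bounded within narrow limits. B cell markers summed to 594 to 820 CPM at 22 °C and 817 to 958 CPM at 10 °C.

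In ileum at 10 °C, the tissue with the second highest levels, none of the 7 was called, against 2.71% of all genes. Cd74 read 1320, 1550 and 1740 CPM at 22 °C and 1480, 1500 and 1390 CPM at 10 °C, with the cold libraries inside the control range. B cell markers varied more than the class II genes, at 19.6, 160 and 413 CPM and 15.4, 91.3 and 263 CPM. In quadriceps, where 6 genes were tested, none was called, against 3.83% of all genes. Cd74 read 118, 81 and 52.6 CPM at 22 °C and 88.3, 128 and 43.3 CPM at 10 °C, so libraries within a group differed by more than the groups.

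In spinal cord none of 6 tested genes was called, against 0.271% of all genes. Cd74 read 14.8, 4.14, 8.86, 20.2 and 15 CPM at 22 °C and 16.6, 12, 9.13, 20.8 and 21.2 CPM at 10 °C. The groups overlapped almost entirely, while H2-DMa was steadier, at 8.32 to 11.6 CPM and 8.55 to 11.6 CPM.

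In brain at 10 °C the members' median was -1.10, with none called, against 2.71% of all genes. H2-Aa read 5.27, 20.8 and 3.31 CPM at 22 °C and 2.94, 3.62 and 2.81 CPM at 10 °C, and Cd74 read 7.41, 34.2 and 7.84 CPM against 6.61, 6.46 and 6.82 CPM. Cd74 was the one gene with lower libraries without overlap, as were 6.45% of all genes. The high control is the library with transcripts of other tissues: Sdc1 carried its plasma cell sum of 196 CPM (2.8 and 4.82 in the other controls), its brown adipocyte sum was 648 CPM (4.07 and 4.43), and its neuron sum was 2110 CPM (3420 and 3030). H2-DMa, in contrast, was lowest there, at 6.61 CPM. Without this library the differences ran from -0.43 to 0.16 with a median of -0.12 and 0 calls.

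In hypothalamus none of the 7 was called, against 0.578% of all genes. Ciita read 5.95, 6.68 and 6.76 CPM at 22 °C and 8.08, 8.5 and 7.72 CPM at 10 °C. All cold libraries were higher, as for 6.2% of all genes, at 0.32 (SE 0.118, adjusted p = 0.759), while Dexi gave 29.8 and 30.1 CPM. Cd74 read 1.76, 15.9 and 5.29 CPM against 9.32, 9.39 and 5.56 CPM. Here too replicate 2 at 22 °C was the highest. Without it H2-Aa (1.12), H2-Ab1 (0.81), H2-Eb1 and Cd74 (1.13) were called higher, where 183 of all 14521 genes were called.

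At 34 °C, the opposite thermal challenge, iBAT gave no call among the 7 genes, against 19.4% of all genes. All 7 fitted differences were above 0, with a median of 0.33. H2-Aa read 75.7, 133 and 124 CPM at 22 °C and 161, 154 and 135 CPM at 34 °C. It was the one member with no overlap, as for 24% of all genes in this direction, at 0.44 (SE 0.203, adjusted p = 0.142). Cd74 read 124, 247 and 186 CPM against 251, 246 and 202 CPM, with the second control inside the warm range. That control carried skeletal muscle markers of 3700 CPM (2.68 and 6.59 in the other controls), and without it 4 genes were called higher, with a median of 0.60, where 2787 of all 12332 genes were called. Macrophage markers summed to 58.3 to 81.5 CPM at 22 °C and 102 to 133 CPM at 34 °C, with 1 of 6 called, and dendritic cell markers to 13.7 to 18.4 and 16 to 28.1 CPM, with 1 of 3 tested called. Their part in the difference was not tested.

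In ileum at 34 °C all 7 fitted differences were below 0, from -0.67 for Ciita to -0.29 for H2-DMa, with none called, against 2.83% of all genes. H2-Aa read 1740, 920 and 1240 CPM at 22 °C and 1130, 911 and 978 CPM at 34 °C. Ciita read 67.7, 33.2 and 87.6 CPM against 58.5, 32.4 and 27.9 CPM. For both genes the second control lay among the warm libraries. B cell markers summed to 370, 89.7 and 537 CPM at 22 °C and 244, 6.42 and 8.52 CPM at 34 °C, low in the 2 libraries with the least Ciita. Without the second control 3 genes were called lower, where 807 of all 13043 genes were called.

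The other tissues at 34 °C gave no call among the 6 genes tested in each, against 3.38% of all genes in liver, 1.21% in quadriceps and 0.193% in brain. Liver Cd74 read 47.8, 48.7 and 37.7 CPM at 22 °C and 49, 59.1 and 41.9 CPM at 34 °C, which overlapped, and all 6 differences were above 0 (0.03 to 0.39). Quadriceps Cd74 read 126, 102 and 55.8 CPM against 113, 62.6 and 88.2 CPM. Brain H2-DMa read 13.6, 13.5 and 12.6 CPM against 13.3, 13.3 and 14.5 CPM, at 0.05 (interval -0.14 to 0.24). For each of these genes the groups overlapped.

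Whether the responses differed between tissues was tested directly. Over the 8 cold tissues that share a table, no member had an adjusted p under 0.05 for a tissue by temperature term, where 16.2% of all genes did, and the lowest was that of H2-DMb1 (adjusted p = 0.143). Over the 5 warm tissues the lowest was that of H2-Ab1 (adjusted p = 0.53), against 13.1% of all genes under 0.05. In quadriceps, where both experiments share a table, the cold and the warm response were set against each other, with a lowest adjusted p of 0.863 for H2-DMa, against 0.483% of all genes. The lower values in iBAT at 10 °C and the higher values at 34 °C come from separate tables and mice, and their difference was not tested.

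Other genes of the pathway were counted from a list of 17: further class II genes, the proteases Ctss, Ctsl and Lgmn, the reductase Ifi30, the ligase that removes class II from the surface (Marchf1), and the X and Y box factors. In iBAT at 10 °C, 0 of 12 tested were called, against 13.3% of all genes. Nfyc, a subunit of the Y box factor NF-Y, went from 26.5 to 37 CPM (0.48, adjusted p = 0.0497), under the fold limit. In ingSAT 1 of 15 rose and 1 fell, a share under the 16.3% of all genes called: Rfxank, a subunit of the X box factor RFX, rose from 12.1 to 18.7 CPM (0.62, adjusted p = 0.0471), and Lgmn fell from 125 to 61.3 CPM (-1.02, adjusted p = 0.138). In pgVAT 1 of 13 was called higher, close to the 7.96% of all genes called. This was H2-DMb2, from a range of 2.59 to 4.25 CPM to an overlapping 2.39 to 37.3 CPM (2.65, adjusted p = 0.593), high in the replicates with epididymis transcripts. In quadriceps at 10 °C 1 of 11 was called higher, Nfya (0.75, adjusted p = 0.265), against 3.83% of all genes called. In iBAT at 34 °C 2 of 11 rose, close to the 19.4% of all genes called: Rfx5, another RFX subunit, from 9.53 to 18.2 CPM (0.94, adjusted p = 0.0066), and Ctss, which trims the invariant chain, from 12.4 to 32 CPM (1.36, adjusted p = 0.0531). Rfxank went the other way there, at -0.56 (adjusted p = 0.018), under the fold limit. The other 11 comparisons had no call.

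Of 7 genes of the interferon gamma route that induces Ciita, 2 calls were made in the 16 comparisons. Ifngr1, its receptor chain, fell in ingSAT at 10 °C from 235 to 131 CPM (-0.84, adjusted p = 0.035) and rose in iBAT at 34 °C from 104 to 165 CPM (0.67, adjusted p = 0.00578). Each was 1 call among 6 genes tested, near the share of all genes called, 16.3% in ingSAT and 19.4% in iBAT. Irf1, which binds the inducible Ciita promoter, went from 43.4 to 31.6 CPM in iBAT at 10 °C (-0.46, adjusted p = 0.0309), under the fold limit. Of 9 class I genes, 3 fell in iBAT at 10 °C, where 7.25% of all genes were called lower: B2m, the light chain of class I, at -0.59 (adjusted p = 0.0215), the peptide transporter Tap1 at -0.72 (adjusted p = 0.0231) and the immunoproteasome subunit Psmb9 at -0.64 (adjusted p = 0.0418). Nlrc5, the class I counterpart of Ciita, read -0.58 (adjusted p = 0.0299) there, and the list's median was -0.54 against -0.02 for all genes. In ingSAT H2-K1 (-0.78), H2-D1 (-0.92) and Tapbp (-0.66) fell at the unadjusted limit, with adjusted p of 0.131, 0.0588 and 0.145, where 9.14% of all genes were called lower. Bone marrow had 6 of 9 class I genes with an adjusted p under 0.05, between -0.18 and -0.27, and none called, where 19% of all genes had an adjusted p under 0.05. In brain at 10 °C Nlrc5 was called lower (-3.68, adjusted p = 0.706), from a control range of 0.925 to 22.8 CPM that includes the library with transcripts of other tissues.

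The genes whose tissue pattern was most like the members' mean, by Pearson's r over the log2 means of the 11 tissues at 22 °C among 15962 genes, were Nfkb2 (0.98), Tnfaip3, Klrb1b, Trim12a, Birc3, Gimap8, Gimap5, Epsti1 and Slamf7 (each 0.97) and Mcoln2 (0.96). Nfkb2 ran from 198 CPM in spleen to 4 CPM in hypothalamus. These r values describe tissues that share tables and may share mice.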

How the data were processed

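Bulk RNA-seq of 106 libraries in 31 groups was used, in 4 tables of raw read counts per gene (48, 36, 12 and 10 libraries). The deposited counts were made by the authors by aligning reads to mm10 with STAR and counting them per gene with HTSeq, and the tables hold no normalization. The submitters' processing notes list STAR 2.5.3a, HTSeq 0.6p1 and Picard 1.141, and the study's methods name other releases. The cold and warm experiments used mice of different suppliers, and per the labels the table of 8 cold tissues came from another library kit than the warm and quadriceps table, although the methods text can be read as giving the cold quadriceps the former kit, so levels were tested only within a table. Of the 21647 Ensembl identifiers of the largest table, 21583 had a symbol.

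Temperatures were taken from the labels. The 6 quadriceps libraries at 22 °C were assigned to their experiment by column name, and 1 spinal cord column at 22 °C was matched to its group only. Adipose tissues other than iBAT at 34 °C were not analysed here. Among 143 pairs of libraries within groups, the lowest chi-square per gene over genes with at least 10 counts was 2.18 (median 22.6), so none was counted as a repeat of another.

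Each cold or warm group was compared with its own 22 °C libraries by edgeR's quasi-likelihood F-test (edgeR 4.0.16, limma 3.58.1, R 4.3.3), two-sided, with TMM scaling, over genes with an average log2 CPM above 0. Calls required p of 0.05 or less before adjustment and more than 1.5-fold change, and adjusted p-values are Benjamini-Hochberg over all genes tested. Intervals are 95% limits of the fitted log2 fold change. Differences between responses were tested as contrasts of the same kind in 1 model. That model took libraries as independent, although tissues of an experiment may share mice. Means, SD and folds of levels are of CPM, and levels per kb divide CPM by the union of GENCODE exons. P-values measure the spread between the libraries, most of them pools. The steps were tested on simulated data with known changes before use.

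The 7 members are named in every tissue, and genes of a pathway list of 17, an interferon gamma list of 7 and a class I list of 9 are named where called. Those named with an adjusted p under 0.05 but no call were chosen after their values were seen, as were the neighbours Dexi and Brd2, Zbtb46 and H2-Ob. The 10 nearest patterns were ranked among genes with at least 1 CPM in a tissue. Members and lists were chosen with earlier results of these data known. Alternatives were other normalization, filters, edgeR's exact test, DESeq2 1.42.0, an adjusted p limit, the replicate number as a block, all quadriceps controls together, and each library left out in groups of up to 5.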

Additional observations from a re-analysis of the deposited data

How the results depend on the processing

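Across 291 alternative values, 243 were taken as the same as the main value. For a count of members this meant within 1.5 times, so 2 and 3 counted as the same. For a single member it meant a kept call and direction, and for a summed level a shift under 1 SD. Of the rest, 30 counts of called members moved further, changes to or from 0 included, 18 single members lost their call, and 0 reversed. The cause of these shifts was not tested. In iBAT at 10 °C (2 calls), scaling by library size alone gave 4 calls (1980 of all 12791 genes called) and dropping the filter gave 1 (2176 of 16834). In ingSAT at 10 °C (2 calls), the adjusted limit gave 0 (1050 of all 13977 genes) and library size alone 1 (2240 of 13982). In liver at 10 °C (1 call), the adjusted limit gave 0 (0 of all 12028 genes), as did library size alone (454 of 12026). In bone marrow (0 calls), the adjusted limit gave 1 (2377 of all 12525 genes). In brain at 10 °C (0 calls), edgeR's exact test gave 1 (772 of all 14416 genes) and DESeq2 gave 2 (389 of 14416). In iBAT at 34 °C (0 calls), library size alone gave 3 (3497 of all 12331 genes). Library size alone moved the median log2 fold change of all genes to -0.18 in iBAT at 10 °C, 0.30 in iBAT at 34 °C, 0.25 in quadriceps at 10 °C and 0.10 in brain at 10 °C.

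Leaving out each library in turn gave 1 to 3 calls in iBAT, 0 to 4 in ingSAT, 0 to 2 in pgVAT, 0 to 5 in liver, 0 to 2 in brain and 0 to 4 in hypothalamus at 10 °C. At 34 °C it gave 0 to 4 in iBAT, 0 to 3 in ileum and 0 to 1 in brain. Beyond the libraries named with the results, the count fell to 1 in iBAT without 22 °C replicate 1, where 1620 of all 12726 genes were called. It fell to 1 in ingSAT without 10 °C replicate 1 (2567 of 13987) or 3 (1771 of 13941). It rose to 3 without 22 °C replicate 3 in iBAT (1932 of 12816) and ingSAT (3511 of 13974) at 10 °C. In brain at 10 °C it rose to 1 without 22 °C replicate 1 (1075 of 14424) and to 2 without replicate 3 (1057 of 14429). It rose to 1 in ileum without 34 °C replicate 1 (1094 of 13020) and in brain at 34 °C without 22 °C replicate 3 (65 of 13981). The other comparisons so tested stayed at 0 calls. Taking cold replicate 2 as the only cold pgVAT library, which was chosen after seeing the data, gave 0 calls, with its spread assumed to be that of the controls.

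The replicate block gave 0 calls in liver, where H2-DMa stood at 0.71 and missed the limit on p, and changed no other call. Libraries of the same number did not vary together throughout. In no tissue did all pairs correlate above 0.1 (iBAT -0.14 to 0.48, spleen -0.69 to 0.07), and in no tissue did every library correlate best with its own number, although 2 of 3 pairs in ileum did. With so few libraries a group, these correlations cannot exclude shared mice or batches. For quadriceps and the 34 °C comparisons, no paired analysis was possible because no replicate numbers tie the groups compared.

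Groups of 3 pools limit what could be seen: the 95% interval of Ciita in ingSAT spans -0.89 to 1.07. Low counts limit Ciita most, which passed the filter in 11 of 16 comparisons.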
